A study of Mus musculus with 2 samples.

Results

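The genes described here are 36 genes of the p53 pathway and of the mitochondrial cell death pathway, chosen by symbol from 43629 genes in the count tables. All 36 symbols matched a row through the GENCODE mouse M21 annotation. They were measured by sequencing of polyadenylated RNA in 2 libraries of mouse embryonic stem (ES) cells, replicates A and B. Both libraries carry a Dgcr8 knockout made by a paired CRISPR/Cas9 method, come from a 129/Ola background with the blastocyst given as tissue, and were taken at passage 7. Dgcr8 is the RNA-binding partner of Drosha, the nuclease that cuts microRNA precursors out of their primary transcripts. No library with intact Dgcr8 was analysed here, so the values are levels in knockout cells and show no effect of the knockout. Whether A and B came from separate cultures or clones is not in the labels, so the spread between them, and every p-value from it, may be technical.

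The transcription factor p53 is held low by the ubiquitin ligase Mdm2 and its relative Mdm4, and after DNA damage it switches on genes for arrest, repair and death. Death by the mitochondrial route is decided within the Bcl2 family. Anti-apoptotic members such as Mcl1 and Bcl2l1 restrain the effectors Bax and Bak1, and the BH3-only members, named for the Bcl2 homology domain they keep, relieve that restraint. Active effectors perforate the outer mitochondrial membrane, cytochrome c escapes, the adaptor Apaf1 assembles with Casp9, and downstream caspases dismantle the cell unless inhibitors of apoptosis block them. Mouse ES cells are known for abundant p53 and for readily entering apoptosis.

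Promoter sequence shows which of these genes carry p53-like letters near an annotated start. Stretches from the genes with a match upstream of such a start are printed first. RefSeq windows on GRCm38.p6, from 250 bases before to 50 bases after an annotated start, were found for 31 of the 36 genes. They were searched for the consensus p53 half-site with no mismatch, a motif of 10 letters that reads the same on both strands. Of the 31 genes, 8 held a match (25.8%), against 8.53% of 17462 protein-coding genes and 9.55% of all 26994 genes with a window. Some genes have several windows. In 37 of the 45 windows of the 31 genes, bases after the start occurred in a GENCODE transcript of the gene. The starts of the remaining windows were not matched in this way. By window, 20% of 45 held a match, against 7.37% of 21230 for protein-coding genes. Among the p53 regulators and targets with a window, 6 of 10 held one (Trp53, Mdm2, Ccng1, Sesn1, Aen and Bax), and among the other genes 2 of 21 (Bmf and Birc2). A match of letters is not a bound site, and a gene without one can have sites elsewhere, as in introns. The stretches below leave out annotated exons, run 5′ to 3′ on the strand of the gene, and have the half-site in capitals.
Trp53, chr11:69580256-69580333, plus strand: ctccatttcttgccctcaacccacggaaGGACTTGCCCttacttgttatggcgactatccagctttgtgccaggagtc
Mdm2, chr10:117710895-117710984, minus strand: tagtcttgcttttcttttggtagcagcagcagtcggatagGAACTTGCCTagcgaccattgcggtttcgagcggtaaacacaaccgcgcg
Ccng1, chr11:40755422-40755511, minus strand: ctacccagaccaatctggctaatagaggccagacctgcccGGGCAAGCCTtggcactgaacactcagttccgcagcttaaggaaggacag
Sesn1, chr10:41887226-41887315, plus strand: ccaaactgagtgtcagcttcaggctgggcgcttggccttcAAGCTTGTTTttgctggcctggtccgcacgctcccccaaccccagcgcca
Bax, chr7:45467050-45467139, minus strand: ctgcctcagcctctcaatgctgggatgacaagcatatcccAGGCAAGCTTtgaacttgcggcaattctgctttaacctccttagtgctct
Bmf, chr2:118544751-118544837, minus strand: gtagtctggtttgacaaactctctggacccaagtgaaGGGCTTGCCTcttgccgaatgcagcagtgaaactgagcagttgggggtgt
The half-site began 75 bases before an annotated start in Trp53, 186 in Mdm2, 185 in Ccng1, 173 in Sesn1, 201 in Bax and 213 in Bmf. For Sesn1 and Bmf that start is an internal one, and their stretches lie within the gene. Sesn1 spans 41809935 to 41908424 and Bmf 118528757 to 118549687. The matches of Aen lay after the start or inside an annotated exon, and that of Birc2 after the start, and they are not printed. The motif GGGCGG, searched on both strands, was in the windows of 24 of the 31 genes (77.4%), against 49.2% of protein-coding genes. TATAAA was in those of 2 (6.45%), against 14.8%. Windows of the 31 genes had a median GC content of 62%, against 56.3% for protein-coding genes.

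The libraries held 27872396 counts in A and 30327146 in B. The same gene is compared between libraries in CPM, a gene's count per 1000000 counted reads, and different genes are compared in RPKM, which is CPM per 1000 bases of annotated exon. A value with ± gives the mean of A and B and their SD (n = 2). Of the 36 genes, 33 reached 1 CPM in both libraries, against 30.6% of all genes and 55.6% of protein-coding genes. The exceptions were Fas, which reached it in A only, and Bcl2 and Bcl2a1b, which stayed under it in both. The median level of the 36 genes was 33.6 CPM (5.09 as log2(CPM + 0.5)), against 22.3 CPM (4.51) for the 14583 genes that reached 1 CPM in at least 1 library.

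The labels were checked first. Dgcr8 itself was still counted, with 1253 counts in A and 1942 in B (5.84 and 8.32 RPKM). Which part of the gene was removed is not in the labels, so this count over the whole gene does not check the knockout. All 5 ES cell markers (Pou5f1, Zfp42, Esrrb, Dppa5a and Tdgf1) reached 1 CPM in both libraries, with a summed level of 8139 CPM in A and 5277 in B. Most of that difference was Dppa5a, at 4252 CPM in A and 1767 in B. Pou5f1 had 1805 CPM in A and 1542 in B, Tdgf1 776 and 678, Zfp42 668 and 648, and Esrrb 638 and 642. Of 5 primitive endoderm markers (Gata6, Sox7, Sox17, Lama1 and Cubn) 2 did so, the sum was 50.4 CPM in A and 162 in B, and Lama1 and Cubn were higher in B by log2 ratios of 1.67 and 2.96. Gata6 and Sox7 reached 1 CPM through B only. For 5 fibroblast markers, 3 of which reached 1 CPM in both, the sums were 16.5 and 8.21 CPM. Of 5 leukocyte markers 3 reached 1 CPM in both, and the sums of the 5 were 26.8 and 31.1 CPM. Cd68 had 412 counts in A and 720 in B, Cd3e 223 and 167, and Cd79a 110 and 49. Ptprc had 1 count in A and 5 in B, and Lyz2 had 0 and 1. The part of these marker differences in the differences between libraries given below was not tested. In bulk RNA, fewer cells of a type and less RNA per cell cannot be told apart.

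**Figure D1:**
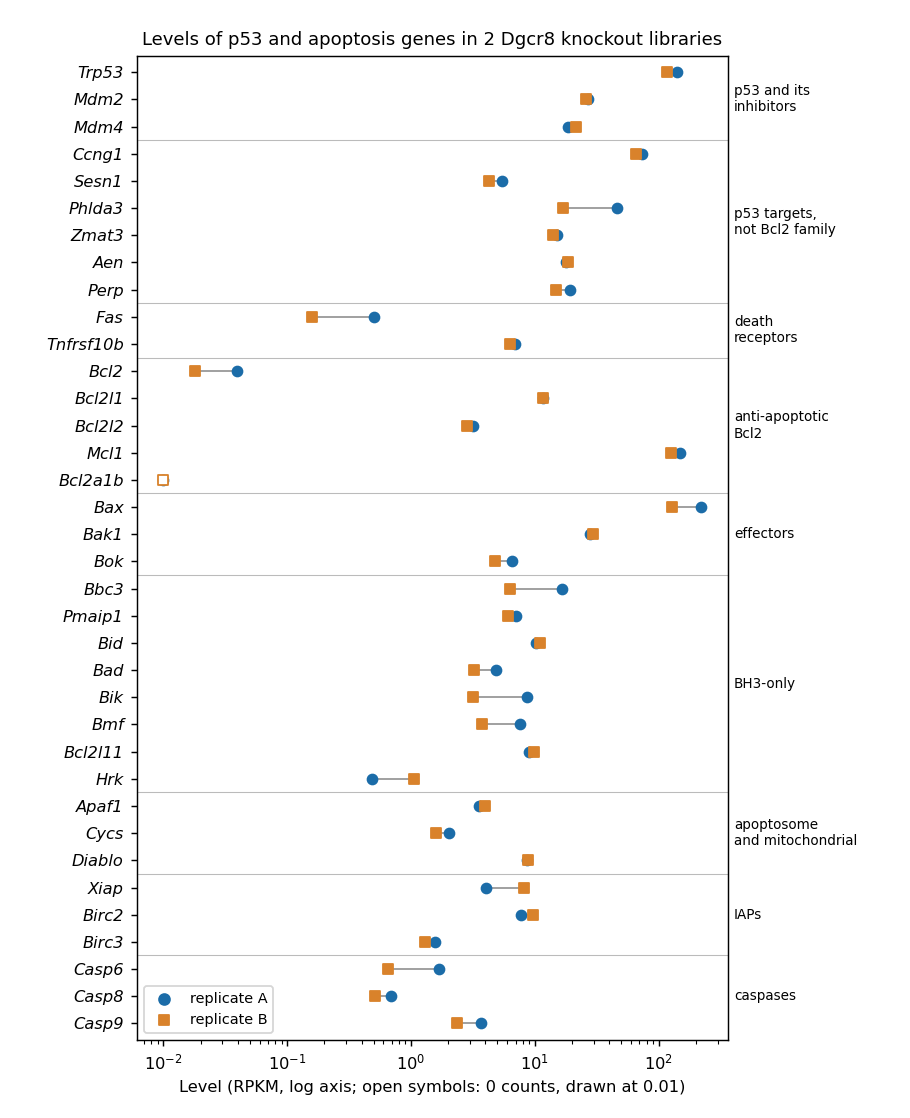
Level of each of the 36 genes in replicate A (circles) and replicate B (squares), in RPKM on a log axis, grouped by role. Bax, Mcl1 and Trp53 lie above 100 RPKM in both libraries, while Bcl2 lies under 0.1 and Bcl2a1b had 0 counts.

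Trp53, which encodes p53 itself (chromosome 11, mm10, 69580359 to 69591873, plus strand), was among the most abundant of the 36 genes. It held 15833 counts in A and 14276 in B, or 140 and 116 RPKM. Its inhibitors were present at lower levels. Mdm2, the main ligase for p53 and itself a p53 target, lay at 26.9 RPKM in A and 25.8 in B. Mdm4, which binds p53 without degrading it, lay at 18.6 and 21.4 RPKM. Trp53 thus exceeded Mdm2 5.23-fold in A and 4.52-fold in B, and Mdm4 7.54-fold and 5.44-fold, by RPKM. Mdm2 exceeded Mdm4 in both libraries, 1.44-fold in A and 1.20-fold in B.

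Targets of p53 outside the Bcl2 family ranged widely in level. Ccng1, the cyclin G1 gene and a classical p53 target, was the highest at 74.0 RPKM in A and 65.6 in B. Phlda3, whose product restrains Akt signalling, followed in A at 46.2 RPKM but lay at only 17.0 in B. Perp, a membrane protein of desmosomes and apoptosis, lay at 19.1 and 14.9 RPKM, Aen, an apoptosis-enhancing nuclease, at 17.8 and 18.5, and Zmat3, an RNA-binding protein, at 15.1 and 14.0. Sesn1, a stress-responsive regulator of growth signalling, was the lowest of these 6 at 5.44 and 4.29 RPKM. By RPKM, Phlda3 was the least reproducible of the 6, at 31.6 ± 20.6, against 69.8 ± 5.96 for Ccng1 and 18.1 ± 0.498 for Aen. That contrast depends on the correction for GC content and length described below. After it the log2 ratio of B over A was -0.52 for Phlda3, -0.50 for Zmat3 and -0.47 for Ccng1. For Sesn1, Perp and Aen it was -0.29, -0.19 and 0.07.

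The death receptors stood apart from each other. Tnfrsf10b, the mouse receptor for the ligand TRAIL, had 1051 counts in A and 1049 in B, or 6.92 and 6.35 RPKM. Fas, the receptor for Fas ligand, had 29 counts in A and 10 in B. In CPM, with exact 95% Poisson limits, replicate A stood at 1.04 (0.697 to 1.49) and replicate B at 0.330 (0.158 to 0.606), so the level of Fas rests on few reads. Such limits hold for counting error alone: without molecular identifiers, several reads can stem from 1 molecule.

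Among anti-apoptotic Bcl2 genes, Mcl1 dominated. Mcl1, a short-lived guardian against apoptosis (chromosome 3, 95658788 to 95663176, plus strand), lay at 148 RPKM in A and 127 in B. Bcl2l1, which encodes Bcl-xL, lay at 11.7 and 11.6 RPKM, and Bcl2l2, which encodes Bcl-w, at 3.15 and 2.83. Mcl1 made up 90.9% of the summed RPKM of the 5 anti-apoptotic genes in A and 89.8% in B, and exceeded Bcl2l1 12.7-fold and 10.9-fold. Bcl2, the founding member of the family, had 10 counts in A and 5 in B, at 0.359 CPM (0.172 to 0.660) and 0.165 CPM (0.0535 to 0.385). Bcl2a1b, a member known from blood cells, had 0 counts in A and in B. The limit of 3 counts used for a count of 0 is 0.108 CPM in A and 0.0989 in B. Two-sided 95% Poisson limits reach higher, to 0.132 and 0.122 CPM. Of its 4 near-identical copies on the same chromosome, Bcl2a1d had 1 count in each library and Bcl2a1a, Bcl2a1c and Gm29094 had 0.

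The effectors were led by Bax. Bax (chromosome 7, 45461697 to 45466898, minus strand) was the most abundant of the 36 genes by mean RPKM, with 9701 counts in A and 6125 in B, or 221 and 128 RPKM. Bak1, the effector that sits permanently in the mitochondrial membrane, lay at 27.9 and 29.4 RPKM, and Bok, a less studied effector, at 6.49 and 4.77. Bax made up 86.5% of the summed RPKM of the 3 effectors in A and 78.9% in B.

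BH3-only genes were all detected, at levels well below Bax and Mcl1. In A the highest was Bbc3, which encodes the p53-induced killer PUMA, at 16.5 RPKM, and in B it was Bid, the link from death receptors to mitochondria, at 11.1 RPKM. Bbc3 lay at 6.30 RPKM in B and Bid at 10.3 in A. Bcl2l11, which encodes Bim, lay at 9.06 RPKM in A and 9.86 in B. Pmaip1, which encodes the p53 target and Mcl1 antagonist Noxa, lay at 7.08 and 6.10 RPKM. Bik had 8.64 RPKM in A and 3.19 in B, Bmf 7.54 and 3.77, and Bad 4.91 and 3.25. Hrk, known mainly from neurons, was the lowest, with 76 counts in A and 183 in B (0.480 and 1.06 RPKM).

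**Figure D2:**
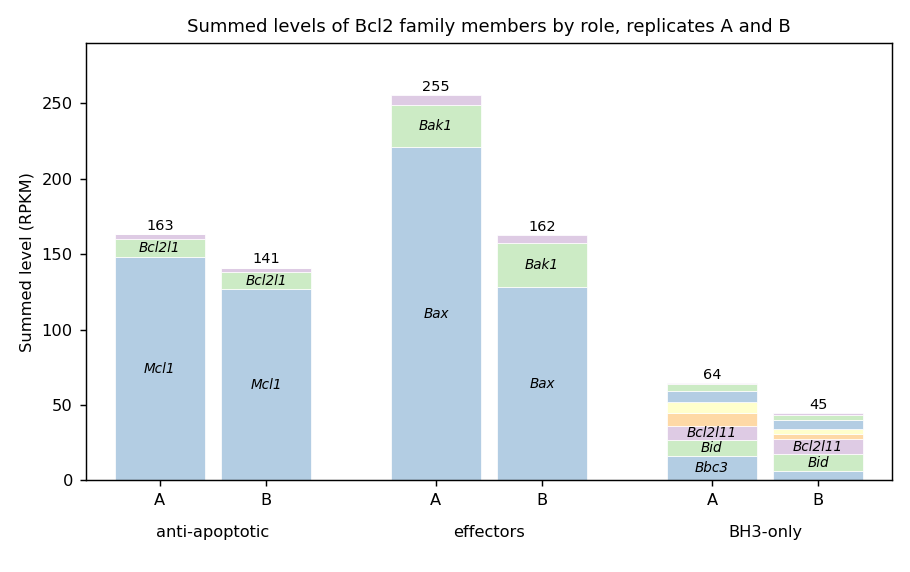
Summed RPKM of the 5 anti-apoptotic genes, the 3 effectors and the 8 BH3-only genes in replicates A and B, with each bar divided by gene and its total above it. The effector total is 255 in A and 162 in B, and the anti-apoptotic total 163 and 141, with Bax and Mcl1 as the main part of each.

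The effectors had the largest of the 3 sums in both libraries. Summed RPKM of the effectors was 255 in A and 162 in B, that of the anti-apoptotic genes 163 and 141, and that of the BH3-only genes 64.4 and 44.7. The effectors exceeded the anti-apoptotic genes 1.57-fold in A and 1.15-fold in B (1.36 ± 0.293). BH3-only genes stood at 0.395 of the anti-apoptotic sum in A and 0.317 in B. The order of effector and anti-apoptotic sums depended on division by length: in CPM the mean ratio was 0.654. Bax has 1576 bases of annotated exon and Mcl1 3418.

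Genes of the apoptosome and its helpers were each under 10 RPKM. Apaf1, the apoptosome scaffold, lay at 3.58 RPKM in A and 3.96 in B, and Diablo (Smac), which neutralises inhibitors of apoptosis, at 8.63 and 8.87. Cycs, the somatic cytochrome c gene, had only 194 counts in A and 166 in B (2.04 and 1.61 RPKM). This level is uncertain, because 7 copies at 90% identity or more that are counted as genes of their own held 1045 counts in A and 1320 in B. Gm10053 on chromosome 19 alone, with 99.9% identity to Cycs over 946 aligned bases, held 904 and 1151 of them. With the copies added, Cycs came to 13.1 RPKM in A and 14.4 in B. For no other gene of the 36 with a count did matching copies add more than 12 counts in a library, apart from Mdm4, whose pseudogene had 17 counts in A and 35 in B against 7681 and 9599 for Mdm4 itself.

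The 3 caspases had the lowest summed level of all roles, 6.06 RPKM in A and 3.50 in B, and the 3 inhibitors of apoptosis came to 13.3 and 19.3 RPKM. Birc2, which encodes the ubiquitin ligase cIAP1, lay at 7.72 RPKM in A and 9.75 in B. Xiap, the direct caspase inhibitor on chromosome X, lay at 4.03 and 8.26 RPKM, so the 2 libraries disagreed on it most within this group. Birc3, which encodes cIAP2, lay at 1.55 and 1.30 RPKM. Casp9, the initiator that binds Apaf1, lay at 3.67 and 2.33 RPKM, Casp6, an executioner, at 1.69 and 0.650, and Casp8, the initiator used by death receptors, at 0.694 and 0.513. Casp9 exceeded Casp8 5.29-fold in A and 4.55-fold in B.

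Genes whose exons overlap others could have lost or gained reads, since the labels call the library protocol reverse-stranded but the strand setting of the counting was not given in the sources used here. Exons on the opposite strand overlapped Bid by 628 bases (Bcl2l13, 1516 and 1709 counts), Bak1 by 437 (Ggnbp1, 595 and 359 counts) and Bad by 524 (Gpr137, 327 and 267 counts). Diablo shared 1326 bases with B3gnt4, which had 6 counts in each library, and 1193 with the same-strand gene model Gm49027. Casp9 shared 94 bases with Cela2a on the opposite strand (35 and 32 counts), and Bcl2 shared 558 with D630008O14Rik (0 counts in each library). On the same strand, Bcl2l2 shared 594 bases with Gm20521 (1 and 0 counts) and Bax 192 of its 1576 with the gene model Gm45808. Levels of these genes are uncertain to that extent.

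The 2 libraries were then compared gene by gene, which gives the spread between A and B of the levels above. Measurement error and differences between the cells cannot be told apart in that spread. Each gene's pair of counts was set against library sizes scaled by TMM (trimmed mean of M-values) in an exact binomial test, two-sided, with Benjamini-Hochberg adjustment over the 14583 genes that reached 1 CPM in at least 1 library. It compares these libraries and no conditions. Of the 36 genes 34 were tested, and 25 differed at an adjusted p under 0.05, 15 higher in A and 10 higher in B. Over all genes tested 76.8% differed, 38.4% in each direction, so the count of 25 is near the background. Without TMM the split was 18 higher in A and 6 higher in B. The log2 ratio of B over A, computed from TMM-scaled log2(CPM + 0.5) values, had a median of -0.13 over the 34 genes and -0.01 over all genes tested. Its median size without sign was 0.24, against 0.44 over all genes tested.

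A difference of at least 1.5-fold was reached by 9 of the 34 genes, against 37.9% of all genes tested. Of these, 7 were higher in A, against 19.4% of all genes tested, and 2 in B, against 18.5%. The 7 were Phlda3, Bax, Bbc3, Bik, Bmf, Casp6 and Fas, and the 2 were Xiap and Hrk. Fas passed the filter on low levels only through A, and with a pseudocount of 1 it fell short of 1.5-fold (log2 ratio -0.58). The p53 regulators, the 3 tested anti-apoptotic genes and the apoptosome genes had no member past 1.5-fold. The ranking of the 36 genes by RPKM was similar in both libraries (Spearman rho 0.955 across genes, which are not independent replicates).

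**Figure D3:**
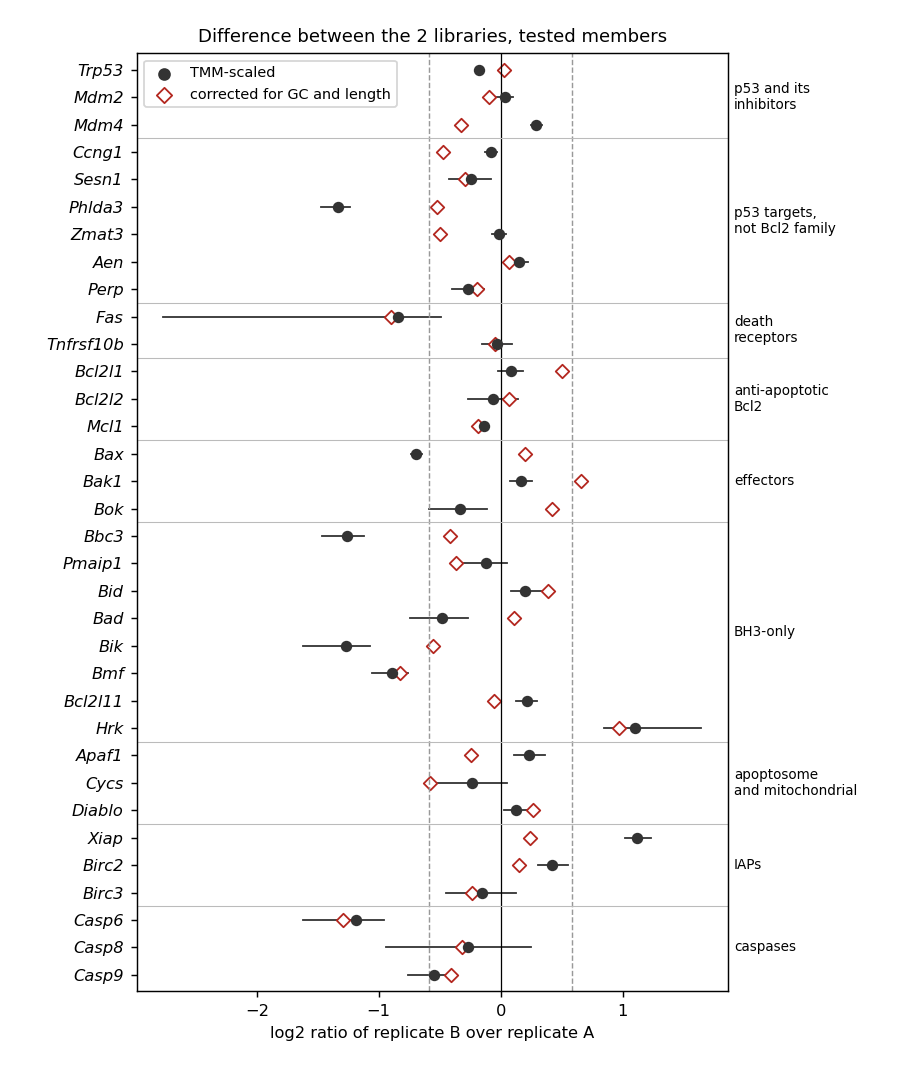
Log2 ratio of replicate B over replicate A for the 34 tested genes, as TMM-scaled values on the scale of log2(CPM + 0.5) (filled circles) and after correction for transcript GC content and length (open diamonds). Bars are exact 95% limits of the ratio of scaled counts without the added 0.5, and dashed lines mark 1.5-fold. Phlda3, Bbc3, Bik, Bax and Xiap move toward 0 with the correction, Bax past it, and Casp6, Bmf, Fas and Hrk stay beyond the lines.

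The ratio between libraries went with transcript composition, over all genes and over these genes. Over 12852 protein-coding genes tested, the median log2 ratio of B over A was 0.52 in the lowest of 10 equal classes of GC content and -0.58 in the highest. Across the 34 genes GC content and log2 ratio had a Pearson r of -0.54 and a Spearman rho of -0.47, against -0.49 and -0.51 over the protein-coding genes, all from the same pair of libraries. Of 8 genes at 55% GC or more, 6 had a lower level in B, among them Bbc3 (65.2% GC), Bax (63.5%), Phlda3 (62.6%) and Bik (59.4%), and 2 were higher in B. Of 7 genes under 45% GC, 3 were higher in B (Xiap, Birc2 and Mdm4) and 4 were lower in B (Ccng1, Fas, Pmaip1 and Cycs). The log2 ratios were therefore also computed with a correction for GC content and length fitted over protein-coding genes. Both were fitted together, and the trend with length alone is not given here. A shift with the correction can therefore not be put down to GC content alone. Of the 25 genes called, 7 changed sign with it: Trp53, Mdm4, Bax, Bok, Bad, Bcl2l11 and Apaf1. Bax went from -0.69 to 0.20, Phlda3 from -1.34 to -0.52, Bbc3 from -1.26 to -0.42, Bik from -1.27 to -0.55 and Xiap from 1.12 to 0.24. By contrast Casp6 stood at -1.29, Fas at -0.90, Bmf at -0.82 and Hrk at 0.97 after the correction. After correction 5 genes were past 1.5-fold, these 4 and Bak1 at 0.66, against 26.5% of all genes with a corrected value. Of the 5, 3 were higher in A (12.9% of all genes) and 2 in B (13.6%). The direction of Bax, and the size of the differences of Phlda3, Bbc3, Bik and Xiap, therefore rest on whether GC content and length are corrected for.

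**Figure D4:**
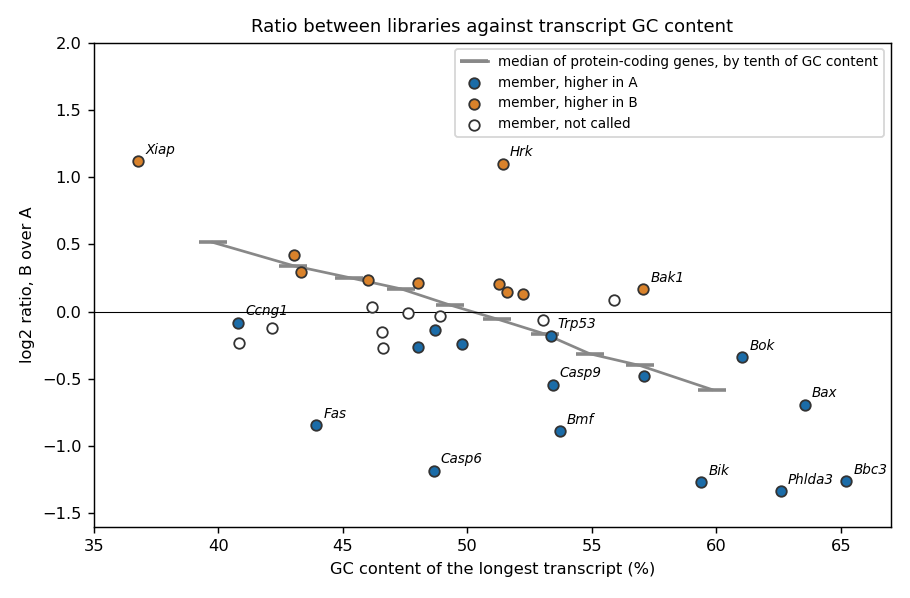
Log2 ratio of replicate B over replicate A against the GC content of the longest transcript for the 34 tested genes, coloured by the call of the exact binomial test, with the median of protein-coding genes in each of 10 equal classes of GC content as grey marks. The medians fall from 0.52 to -0.58 as GC content rises. Bax, at 63.5% GC, has a ratio near that of the highest class, and Casp6, Fas and Hrk lie far from the medians.

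Among p53 targets (Bax, Bbc3 and Pmaip1 included), 7 of 11 tested were higher in A. Of the others, 1 was higher in B and 3 did not pass the test. Bax is among the 7 and turns with the correction for GC content and length. Fas is also among the 7, but it was tested only because it reached 1 CPM in A. Its direction is therefore not independent of that filter. The 8 called are 72.7% of the 11, near the 76.8% over all genes tested, of which 38.4% were higher in A. Phlda3 had 72.0 CPM in A and 26.4 in B, a ratio of scaled counts of 2.55 (95% interval 2.35 to 2.77, adjusted p = 5.8e-122, exact binomial test). Bbc3 had 34.9 CPM in A and 13.4 in B, a ratio of 2.45 (2.18 to 2.75). Bax had 348 CPM in A and 202 in B, a ratio of 1.62 (1.56 to 1.67) whose direction turns with the correction. The remaining p53 targets that were higher in A, Ccng1, Sesn1, Perp and Fas, had log2 ratios of -0.08, -0.24, -0.27 and -0.84, and -0.47, -0.29, -0.19 and -0.90 after the correction. Aen was higher in B at 0.15, and Zmat3, Tnfrsf10b and Pmaip1, which did not pass, had -0.01, -0.03 and -0.12, and -0.50, -0.04 and -0.37 after the correction. Trp53 was higher in A by 1.13-fold (log2 ratio -0.18, but 0.03 after the correction). Mdm4 was higher in B by 1.22-fold (log2 ratio 0.29, but -0.33 after the correction). Mdm2 did not pass, at a ratio of B over A of 1.02 (0.978 to 1.07).

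Within the Bcl2 family the anti-apoptotic genes differed little between the libraries. Of the 3 tested, Mcl1 was higher in A by 1.10-fold, and Bcl2l1 and Bcl2l2 did not pass, with ratios of B over A of 1.06 (0.987 to 1.14) and 0.958 (0.830 to 1.11). The log2 ratio of Bcl2l1 was 0.08, and 0.50 after the correction. Of 11 pro-apoptotic genes, 6 were higher in A, 4 were higher in B, and Pmaip1 did not pass, with Bax, Bok, Bad and Bcl2l11 changing sign after the correction. The share called was 90.9%, beside 76.8% over all genes tested (38.4% in each direction). Bik and Bmf were higher in A by ratios of 2.54 (2.10 to 3.08) and 1.87 (1.70 to 2.07). Hrk was higher in B by 2.36 (1.80 to 3.13). Bad and Bok, also higher in A, had log2 ratios of -0.48 and -0.34, which became 0.11 and 0.42 after the correction. Bak1 and Bid, higher in B, had 0.17 and 0.20 (0.66 and 0.38 after the correction), and Bcl2l11 had 0.21, which became -0.05. Whether the 2 sides of the family differ in this respect was not tested.

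Downstream genes differed in both directions. Of the inhibitors, Xiap was higher in B by a ratio of 2.19 (2.03 to 2.35) and Birc2 by 1.35 (1.24 to 1.46). Their log2 ratios, 1.12 and 0.42, fell to 0.24 and 0.15 after the correction for GC content and length. Birc3 did not pass, at a log2 ratio of -0.15 (-0.23 after the correction). Among caspases, Casp6 was higher in A by 2.44 (1.95 to 3.08) and Casp9 by 1.47 (1.29 to 1.69), and Casp8 did not pass, at a log2 ratio of -0.27 from 56 and 45 counts. Apaf1 was higher in B by a log2 ratio of 0.23, which became -0.24 after the correction. Diablo was higher in B by 0.13, and Cycs did not pass, at -0.23 (-0.58 after the correction). With its copies Cycs had 44.5 CPM in A and 49.0 in B, the opposite order.

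The rest of the p53 pathway was looked at with a list of 36 further genes, 35 of which reached 1 CPM in both libraries. Of 35 tested, 19 were higher in A, 11 were higher in B, and 5 did not pass, with a median log2 ratio of -0.23. The share called was 85.7%, beside the 76.8% over all genes tested. The highest by mean RPKM was Gtse1, a mitotic protein that binds p53, at 147 RPKM in A and 116 in B. Sesn2, a stress-induced relative of Sesn1, followed at 60.6 and 77.3, then Usp7, a deubiquitinase of Mdm2 and p53, at 56.4 and 76.6, and Psrc1, a spindle protein, at 71.6 and 42.2. Cdkn1a, which encodes the cell cycle inhibitor p21 and is the best known p53 target, lay at 34.5 RPKM in A and 11.9 in B. Its log2 ratio was -1.44, or -1.05 after the correction for GC content and length. Trp63, a p53 relative of epithelia, had 2 and 3 counts.

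A second list held 38 measured genes of the death machinery outside the 36, and 28 reached 1 CPM in both libraries. Of those 28, all tested, 12 were higher in A, 10 were higher in B, and 6 did not pass, with a median log2 ratio of 0.01. The share called, 78.6%, was near the 76.8% over all genes tested. The mitochondrial channel genes Vdac1 and Vdac2 lay at 252 and 71.9 RPKM in A and 266 and 73.2 in B. Parp1, a DNA repair enzyme cut by caspases, lay at 171 and 174 RPKM, and Bag1, a cochaperone that binds Bcl2, at 104 and 73.3. The inflammatory caspase gene Casp1 had 0 counts in both libraries, and Casp4 had 0 in A and 1 in B.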

How the data were processed

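RNA of 2 libraries was sequenced, and the authors deposited raw read counts per gene for each. The submitters' processing notes name the aligner STAR 2.4.2a, the counter featureCounts 1.4.5-p1 and, as genome, mm10. For the annotation, strand setting and treatment of multiply mapped reads, the settings were not given in the sources used here. Replicate A totals 27872396 counts and replicate B 30327146, so 3 counts correspond to 0.108 and 0.0989 CPM. Gene positions, exon lengths and GC content came from GENCODE M21, which matched genes holding 99.8% of the counts in each library.

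From the counts, CPM, RPKM (exon union length) and exact 95% Poisson intervals (scipy 1.17.1) were computed. Both libraries belong to 1 group, so no quasi-likelihood test of a contrast could be made. Libraries were compared with an exact two-sided binomial test (scipy 1.17.1) on counts, with TMM factors from edgeR 4.0.16 (R 4.3.3) and Benjamini-Hochberg adjustment over genes that reached 1 CPM in at least 1 library. Log2 ratios used a pseudocount of 0.5 CPM. Intervals of ratios are exact and conditional on the sum of both counts. The test covers counting error and compares libraries, not conditions. The procedure was tested on simulated Poisson counts, with no further spread between libraries and no trend with GC content. That simulation therefore does not show how the test behaves on these 2 libraries. The correction for GC content and length subtracted natural splines in both, fitted to 12852 protein-coding genes. Copies were sought with BLAST 2.17.0 (identity of at least 90% over at least 200 bases and at least 50% of the copy). Promoter windows came from RefSeq on GRCm38.p6.

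The 36 genes and all lists were chosen with earlier results of these data known. All 36 are named. Each further list is represented by its 4 genes of highest mean RPKM among those reaching 1 CPM in A and B, by at most 2 genes below 1 CPM in A and B, and by Cdkn1a. The alternatives tried were library totals, size factors of DESeq2 1.42.0, other pseudocounts and filters, Fisher's exact test, other thresholds, other lengths, and each library left out.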

Additional observations from a re-analysis of the deposited data

How the results depend on the processing

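No paired analysis was possible because both libraries belong to 1 group. With 2 libraries, leaving one out gives no value for a comparison of A with B. Leaving out each library gave a median level of the 36 genes of 4.82 to 5.19 on the log2(CPM + 0.5) scale, an effector to anti-apoptotic ratio of 1.15 to 1.57, and a BH3-only to anti-apoptotic ratio of 0.317 to 0.395. On the log2 scale of RPKM the median level was 2.83. Lengths of the longest transcript gave ratios of 1.75 and 0.441 in place of 1.36 and 0.356, and CPM gave 0.654 for the effectors. The count of genes higher in B was 6 with library totals and 6 with Fisher's exact test, against 10. With the correction for GC content and length, 5 genes in place of 9 passed 1.5-fold, 3 of them higher in A in place of 7. At a 2-fold threshold 4 were higher in A. Among the 25 genes called, that correction turned the sign of the log2 ratio of B over A for 7: Trp53 (0.031), Mdm4 (-0.33), Bax (0.20), Bok (0.42), Bad (0.11), Bcl2l11 (-0.052) and Apaf1 (-0.24). Mdm2 and Bcl2l2, not called, also changed sign, to -0.09 and 0.07. The causes were not tested. With library totals Zmat3, Pmaip1 and Cycs passed the test and Aen, Bak1, Bid and Diablo did not. The DESeq2 size factors were 1 for both libraries, so that setting compared the counts unscaled, and with it Bcl2l1 also passed. With pseudocounts of 0.1 and 1 all 34 log2 ratios kept their sign. The ratio of Fas was -1.33 and -0.58, and at a pseudocount of 1 Fas fell short of 1.5-fold, which left 8 genes past it, 6 of them higher in A. Fas, Bcl2, Casp8 and Bcl2a1b had under 100 counts in both libraries, so depth limits them most.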

Other observations

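Among the further genes, some were singled out after their values were seen. Atm, the kinase that signals DNA double-strand breaks to p53, had 531 counts in A and 2451 in B, a log2 ratio of B over A of 2.15 that was 1.36 after correction for GC content and length. Birc6, a giant ubiquitin ligase that restrains caspases, had 2657 counts in A and 9071 in B, with log2 ratios of 1.74 and 0.94 before and after the correction. Ephx1, an epoxide hydrolase, had 881 counts in A and 261 in B, with log2 ratios of -1.73 and -1.37.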
